A study of Mus musculus with 54 samples.

Results

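The kainate receptor subunit genes Grik1 to Grik5 were followed over 3 brain regions of 6 inbred mouse strains. They were found by symbol in the platform annotation, which gave 8 of the 45101 probe sets of the array to these 5 genes, out of 18193 genes in the table. Grik1, Grik2 and Grik3 each had 2 probe sets, and Grik4 and Grik5 had 1 each. The probe set with the highest mean over all 54 arrays stood for its gene, and the other probe sets are described beside it.

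The animals were male mice of the strains C3H HeJ and BalbC/J and of 4 C57 strains, C57L/J, C57BLKS/J, C57BL10/J and C57BL6/J, taken at postnatal day 60 with no mutation or drug given in the labels. For each strain and each of hippocampus, striatum and brainstem there were 3 arrays. The tested array, 1 of the 3, held mice that had been through a startle test at postnatal day 50, and 2 untested arrays held mice that had not. The startle test measured prepulse inhibition, in which a faint sound just before a loud one reduces the startle to the loud one. Each array measured RNA pooled from 3 mice, with hemispheres alternated. The replicates are therefore pools, and the tissues of a strain may have shared mice, so errors give the spread between pools and not between animals.

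Kainate receptors are glutamate-gated ion channels that assemble as tetramers. Grik1, Grik2 and Grik3 encode GluK1, GluK2 and GluK3, the low-affinity subunits, each of which can form a channel by itself. Grik4 and Grik5 encode GluK4 and GluK5, the high-affinity subunits, which need a low-affinity partner to reach the surface. In the hippocampus kainate receptors are best known at the mossy fibre synapse onto CA3 pyramidal cells, and they also act on axon terminals to tune the release of glutamate and GABA.

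RefSeq's promoter windows for mouse build GRCm38.p6 span 300 bases around one annotated start of a gene, and 4 of the 5 genes had such a window. RefSeq's gene spans reach 1157 bases further upstream for Grik2, 187 for Grik3, 379 for Grik4 and 3075 for Grik5. These windows therefore do not cover the outermost start. The windows of Grik2 (chr10:49788705-49789004, minus strand) and Grik4 (chr9:42944322-42944621, minus strand) are shown because these genes had large differences from striatum in opposite directions. Both are written 5′ to 3′, and capitals mark the GC box GGGCGG or its reverse complement CCGCCC, searched on both strands.
Grik2: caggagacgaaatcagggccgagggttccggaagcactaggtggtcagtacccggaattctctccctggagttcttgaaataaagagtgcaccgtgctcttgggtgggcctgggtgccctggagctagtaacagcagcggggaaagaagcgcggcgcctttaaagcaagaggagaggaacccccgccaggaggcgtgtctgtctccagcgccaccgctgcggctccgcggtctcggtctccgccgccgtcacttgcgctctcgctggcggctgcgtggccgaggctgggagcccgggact
Grik4: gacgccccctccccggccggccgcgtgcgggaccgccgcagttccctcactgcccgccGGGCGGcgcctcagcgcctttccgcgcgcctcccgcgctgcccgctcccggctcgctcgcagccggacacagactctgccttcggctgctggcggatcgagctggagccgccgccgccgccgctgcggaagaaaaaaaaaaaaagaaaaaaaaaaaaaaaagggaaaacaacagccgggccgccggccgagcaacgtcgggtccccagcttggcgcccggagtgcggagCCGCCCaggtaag
The Grik2 window held 0 GC boxes, 26 CG dinucleotides and 64.7% G and C. The Grik4 window held 2 GC boxes, 42 CG dinucleotides and 70.0% G and C. Grik3 on chromosome 4 had 7 GC boxes and 82.0% G and C, and Grik5 on chromosome 7 had 2 GC boxes and 72.0% G and C. None of the 4 windows held TATAAA on either strand. Over all 32851 promoter windows 35.7% held the GC box, 13.6% held TATAAA, and the median G and C content was 52.7%. A match describes the letters only.

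All values below are log2 expression as deposited, 1 unit being a 2-fold difference. Differences were tested with limma, with p-values adjusted over all genes tested by Benjamini and Hochberg's method, and a gene is called where the adjusted p was under 0.05. On every array all 5 brightest probe sets exceeded the 40th percentile of that array's values, the limit for testing, so each member was tested in every tissue. Levels of different genes are not compared, since each probe set has its own response.

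The tissues carried their own markers. Of the markers with a probe set, all 9 for hippocampus, all 8 for striatum and all 9 for brainstem were highest in their own tissue. A pair of strain groups held arrays that stood apart. In C3H HeJ brainstem, the second untested array had cerebellar markers (10 of 10 listed) 3.89 above the median brainstem array and brainstem markers 1.34 below it. Of the 10 cerebellar markers 7 were highest in brainstem, and on the other 17 brainstem arrays their mean lay between -0.97 and 1.03. It was at 0.09 to 1.03 in BalbC/J and -0.84 to -0.42 in C57BL6/J, so strains differed in these markers without that array too. In C57L/J striatum, the striatum markers (8 of 10 listed) were at 0.09 on the tested, -0.33 on the first untested and -0.89 on the second untested array, relative to the median striatum array. On the other 15 striatum arrays they lay between -0.16 and 0.10. The tested C57L/J striatum array was also the only 1 of the 54 whose closest array belonged to another strain. For the brightest probe sets of the members, called strain pairs that include these arrays are given below with and without them.

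The 5 subunit genes had different regional patterns. Grik4 was highest in hippocampus and lowest in striatum. Grik1 was about equally high in hippocampus and brainstem and about 10-fold lower in striatum. Grik2, Grik3 and Grik5 were highest in striatum and lowest in brainstem.

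Among the low-affinity subunits, Grik1 ranged over 8.38 to 9.46 in hippocampus (median 8.96), 4.16 to 7.93 in striatum (median 5.45) and 8.64 to 9.47 in brainstem (median 9.02), on 18 arrays each. Every striatum array lay below every hippocampus and brainstem array. Averaged over strains, hippocampus exceeded striatum by 3.35 ± 0.13 (SE), or 10.2-fold, with a limma adjusted p of 5.67e-24. Striatum was below brainstem by a difference of -3.42 ± 0.13, or 10.7-fold (limma adjusted p = 1.56e-24). Hippocampus and brainstem differed by -0.07 ± 0.13, which was not called (limma adjusted p = 0.603). The second Grik1 probe set was above the 40th percentile on 12 of 18 hippocampus arrays, 1 of 18 striatum arrays and 17 of 18 brainstem arrays, so only bounds can be given against striatum. With each dim value set to its array's 40th percentile, it was at least 2.48-fold higher in hippocampus than in striatum and at least 3.19-fold lower in striatum than in brainstem. Hippocampus minus brainstem gave -0.36 on the deposited values, which was called over all probe sets (limma adjusted p = 8.28e-04). That difference includes the hippocampus and brainstem arrays below the 40th percentile, so its size is uncertain. In the 3 comparisons of tissues 87.5%, 85.4% and 88.4% of all probe sets were called.

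Grik2 ranged over 10.04 to 10.58 in hippocampus (median 10.26), 10.55 to 11.74 in striatum (median 11.39) and 8.71 to 9.88 in brainstem (median 9.02). Hippocampus and striatum met only in their extremes, the lowest striatum array (C57L/J, the second untested) being below the highest hippocampus array. The means were 10.29 ± 0.15, 11.34 ± 0.30 and 9.05 ± 0.22 (SD, 18 arrays each). Grik2 fell by 1.05 in hippocampus relative to striatum (SE 0.06, 2.07-fold, limma adjusted p = 1.03e-17). It was higher than in brainstem by 1.24 in hippocampus (2.36-fold) and by 2.29 in striatum (4.89-fold). Its second probe set had the same directions with larger differences, -1.33 ± 0.09, 2.98 and 4.32.

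Grik3 ranged over 9.93 to 10.82 in hippocampus (median 10.58), 10.97 to 11.57 in striatum (median 11.22) and 9.76 to 10.40 in brainstem (median 10.11). Striatum did not overlap the other regions, while hippocampus and brainstem overlapped. Grik3 was lower in hippocampus than in striatum by a difference of -0.68 ± 0.04 (1.60-fold, limma adjusted p = 8.67e-17) and higher than in brainstem by 0.44 (1.36-fold) in hippocampus and 1.12 (2.17-fold) in striatum. Its second probe set read 2.58 to 2.87 on all arrays, below the 40th percentile throughout, and was not tested.

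Of the high-affinity subunits, Grik4 ranged over 7.56 to 8.26 in hippocampus (median 7.91), 3.57 to 4.67 in striatum (median 3.89) and 5.44 to 6.59 in brainstem (median 5.99). The regions did not overlap. Grik4 was 4.02 ± 0.07 higher in hippocampus than in striatum, a 16.3-fold difference (limma adjusted p = 2.84e-36). It was 2.00 higher in hippocampus than in brainstem (4.01-fold) and differed by -2.02 between striatum and brainstem (4.06-fold). Its striatum values lay close above the 40th percentile of the arrays, which was 3.12 to 3.47 over all arrays.

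Grik5 ranged over 10.11 to 10.78 in hippocampus (median 10.49), 10.32 to 11.19 in striatum (median 10.92) and 9.04 to 9.46 in brainstem (median 9.14). Brainstem lay below both other regions on every array, while hippocampus and striatum overlapped. The difference was -0.41 ± 0.07 for hippocampus minus striatum (1.33-fold, limma adjusted p = 5.24e-07), 1.28 for hippocampus minus brainstem (2.43-fold) and 1.69 for striatum minus brainstem (3.22-fold). In bulk tissue, fewer cells that express a gene and less RNA per cell cannot be told apart.

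**Figure D1:**
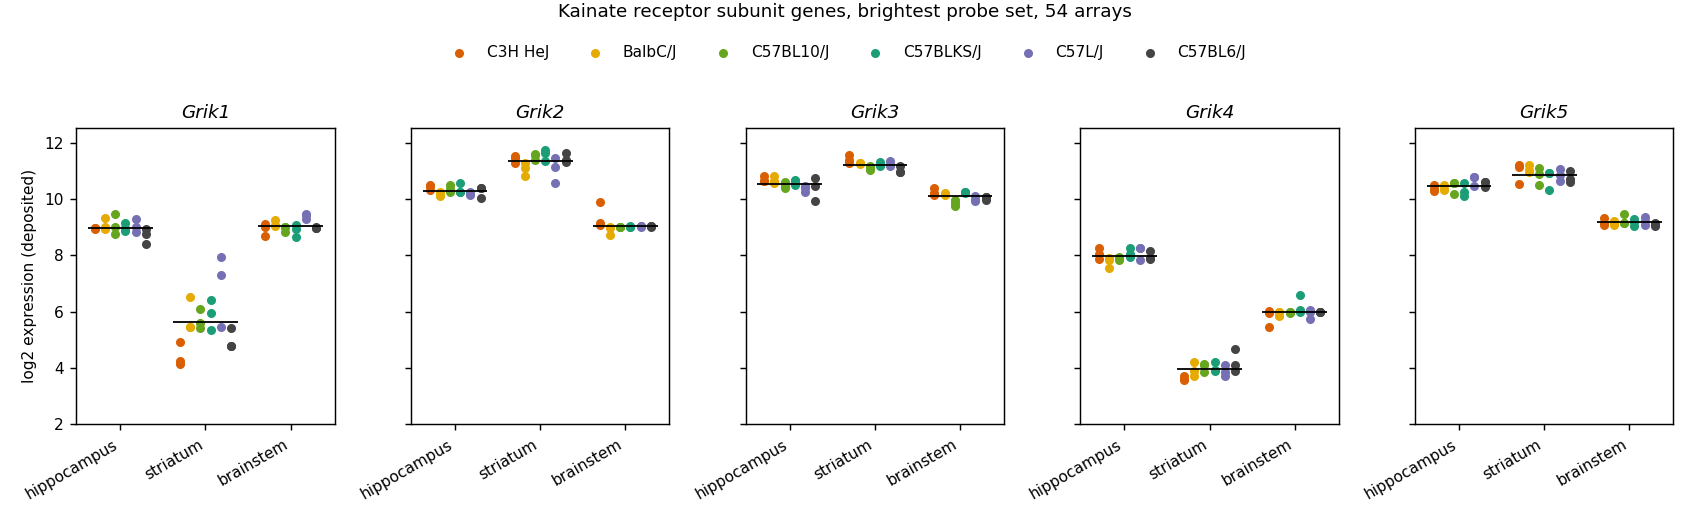
Deposited log2 expression of the brightest probe set of each kainate receptor subunit gene on the 54 arrays, by tissue, with strains in colour and the mean of 18 arrays as a line. Grik1 and Grik4 drop in striatum, to means of 5.62 and 3.96, while Grik2, Grik3 and Grik5 have their highest mean there.

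For hippocampus minus striatum 5 of 5 members were called, 2 higher and 3 lower, where 88.3% of all genes tested were called (64.2% higher, 24% lower). For hippocampus minus brainstem 4 of 5 were called, all higher, against 86.4% of all genes (40.7% higher, 45.6% lower). For striatum minus brainstem 5 of 5 were called, 3 higher and 2 lower, against 89.6% of all genes (29.1% higher, 60.5% lower). The number called is thus near the background, and what the members show is the size and direction of each difference. The members' median differences were -0.41, 1.24 and 1.12, against all-gene medians of 0.25, -0.02 and -0.32. Those all-gene medians show a shift between tissues. With arrays centred on their medians every call and direction was kept, but the hippocampus minus striatum difference became -1.04 for Grik3 and -0.77 for Grik5, and with quantile normalization -0.94 and -0.67.

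Neto1 and Neto2 encode transmembrane proteins that slow the gating of kainate receptors. Neto1 averaged 11.59 in hippocampus, 11.73 in striatum and 8.91 in brainstem. Its hippocampus minus striatum difference of -0.14 ± 0.07 was not called (limma adjusted p = 0.0536), and it was 2.67 ± 0.07 higher in hippocampus and 2.82 higher in striatum than in brainstem. Its other probe sets gave -0.78 (limma adjusted p = 2.74e-13, called) and -0.05 (limma adjusted p = 0.398) for hippocampus minus striatum, and 1.02 and 3.92 for hippocampus minus brainstem, so they shared the brainstem direction but not its size or the call between hippocampus and striatum. Neto2 averaged 10.46 in hippocampus, 12.11 in striatum and 10.61 in brainstem. It was lower in hippocampus than in striatum by a difference of -1.65 ± 0.05 (limma adjusted p = 3.04e-27) and higher in striatum than in brainstem by 1.50. Its hippocampus minus brainstem difference was small, -0.15 (limma adjusted p = 0.00712). Another Neto2 probe set gave -3.78 for hippocampus minus striatum. The remaining one was above the 40th percentile on 3 of 18 hippocampus arrays and was at least 22.0-fold lower there than in striatum.

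The genes analysed that bind, move, edit or supply kainate receptors numbered 19. For hippocampus minus striatum 15 of 19 were called, 11 higher and 4 lower, against 88.3% of all genes. For hippocampus minus brainstem 16 were called, 10 higher and 6 lower, against 86.4% of all genes, and for striatum minus brainstem 17, 7 higher and 10 lower, against 89.6%. These counts are near the background. The list medians were 0.28, 0.23 and -0.12, against all-gene medians of 0.25, -0.02 and -0.32. C1ql2, a secreted protein of mossy fibre terminals that gathers kainate receptors at that synapse, was below the 40th percentile on all 18 striatum arrays and was at least 75.3-fold higher in hippocampus than there, and it was 4.97 higher in hippocampus than in brainstem. Kif17, a kinesin motor known for carrying glutamate receptors into dendrites, ran the other way, at -2.03 ± 0.04 for hippocampus minus striatum and 3.56 for striatum minus brainstem. Slc17a6, the vesicular glutamate transporter of brainstem and thalamic neurons, differed by -9.51 ± 0.26 between striatum and brainstem on the deposited scale, with striatum values of 3.44 to 8.07, all above the 40th percentile. Adarb1, which edits the pore codon of Grik1 and Grik2 transcripts, was lower in hippocampus than in brainstem by a difference of -1.07 ± 0.05.

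**Figure D2:**
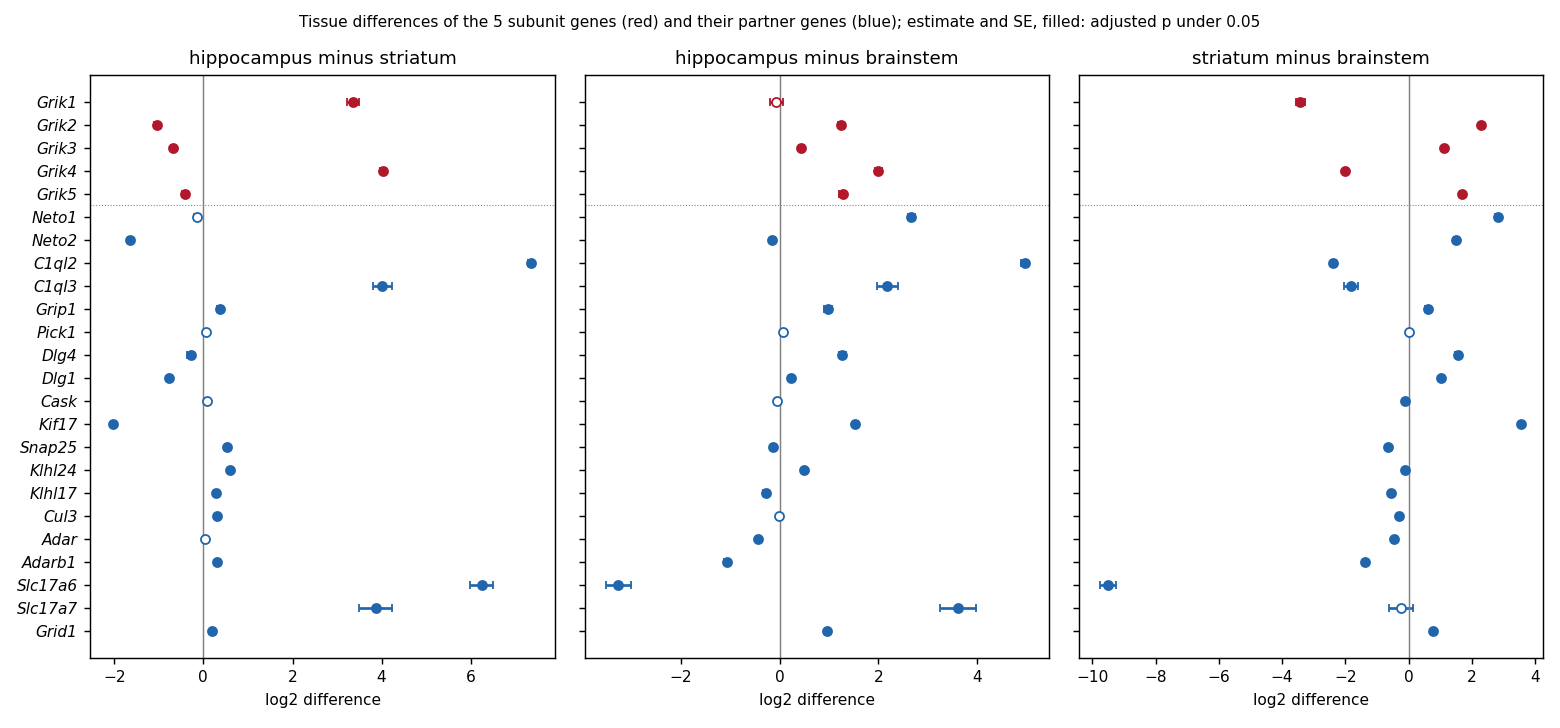
Log2 differences between tissues (estimate and SE) of the 5 subunit genes in red and the 19 partner genes in blue, filled where the limma adjusted p was under 0.05. Grik1 and Grik4 lie on the opposite side of 0 from Grik2, Grik3 and Grik5 for hippocampus minus striatum and striatum minus brainstem, and C1ql2 lies furthest to the right for hippocampus minus striatum, at a fitted 7.35 that includes striatum values below the 40th percentile.

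Among strains, fewer members were called. No member was called among the 6 strains in hippocampus by limma's F test, where 31.2% of all genes were called and 0 of the 5 had an unadjusted p under 0.05. Grik1 and Grik3 were called in striatum and again in brainstem, 2 of 5 in each, where 26.2% and 23% of all genes were called. The members' median range of strain means was 0.35 in hippocampus, 0.53 in striatum and 0.41 in brainstem, against 0.27, 0.36 and 0.30 over all genes.

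In striatum Grik1 read 4.26, 4.16 and 4.93 in C3H HeJ, 6.50, 5.46 and 5.44 in BalbC/J and 5.59, 5.41 and 6.09 in C57BL10/J, the tested array first. It read 5.33, 5.96 and 6.40 in C57BLKS/J, 5.46, 7.29 and 7.93 in C57L/J, and 4.79, 5.42 and 4.78 in C57BL6/J. The untested C57L/J arrays were the highest of the 18, and the 3 C57L/J arrays differed more among themselves than those of any other strain. The range of strain means was 2.44 (limma adjusted p = 0.0193). From high to low the order was C57L/J, C57BLKS/J, BalbC/J, C57BL10/J, C57BL6/J and C3H HeJ, and no neighbours in it differed beyond their spread. Of 15 strain pairs 2 were called. C57L/J exceeded C57BL6/J by 1.90 ± 0.48, or 3.72-fold (limma adjusted p = 0.0382), where 4.3% of all genes were called, and C3H HeJ lay below C57L/J by a difference of -2.44 ± 0.48 (limma adjusted p = 0.00227), where 26.7% were called. The C3H HeJ minus C57L/J call was kept without the tested, first untested or second untested C57L/J array, at -3.12, -2.31 and -1.98 (limma adjusted p = 1.17e-04, 0.0113 and 0.0128).

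The C57L/J result moved with its arrays. Without the second untested C57L/J array the difference from C57BL6/J was 1.43 (limma adjusted p = 0.186), without the first untested array 1.76 (limma adjusted p = 0.121), and without the tested array 2.58 (limma adjusted p = 0.00139). The call was lost in 8 of the 18 fits that left out 1 array, among them the fits without each C57BL6/J array in turn. The call among strains was lost without the first untested C57L/J array (limma adjusted p = 0.0595) and without the first untested C3H HeJ array (limma adjusted p = 0.0606). Regional markers moved with it. The C57L/J arrays with more Grik1 had lower striatum markers, as given above, and their cortex markers (5 of 6 listed) were at -1.02, 0.01 and 1.17 in the order tested, first and second untested, against -0.31, -1.08 and -0.10 in C57BL6/J. Neuron markers (5 of 5) were at -0.06, 0.32 and 0.54 in C57L/J and -0.07, -0.09 and -0.04 in C57BL6/J. All 8 striatum markers stayed above the 40th percentile on every striatum array. The part of these markers in the Grik1 difference was not tested.

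**Figure D3:**
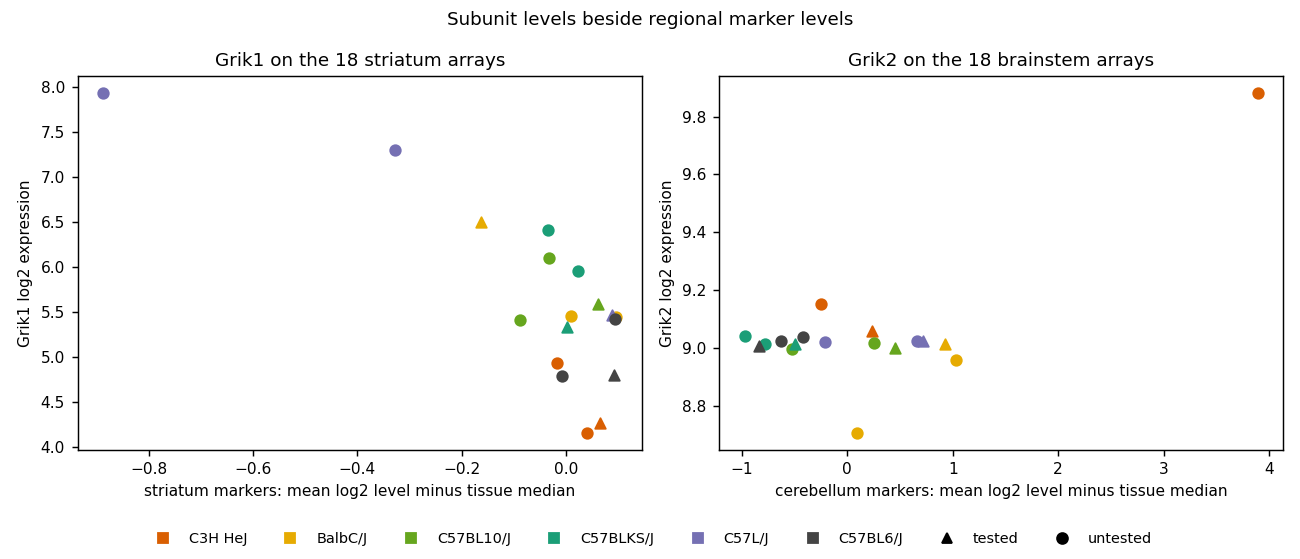
Level of Grik1 on the 18 striatum arrays against the mean level of 8 striatum markers (left), and of Grik2 on the 18 brainstem arrays against that of 10 cerebellar markers (right), both marker means relative to the median array of the tissue, with strains in colour and triangles for tested arrays. The untested C57L/J arrays have the highest Grik1 and the lowest striatum markers, and 1 untested C3H HeJ array has both the highest Grik2, 9.88, and cerebellar markers 3.89 above the median.

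In brainstem Grik1 was again highest in C57L/J, with 9.44, 9.30 and 9.47, against 8.97, 8.98 and 8.99 in C57BL6/J. These strains did not overlap, though the difference of 0.42 ± 0.12 was not called (limma adjusted p = 0.0836), where 3.28% of all genes were. The order was C57L/J, BalbC/J, C57BL6/J, C57BL10/J, C3H HeJ and C57BLKS/J, with no neighbours called. C57BLKS/J lay below C57L/J by a difference of -0.53 (limma adjusted p = 0.0201) and C3H HeJ by -0.46 (limma adjusted p = 0.0223), where 4.09% and 11.4% of all genes were called. Without the C3H HeJ array that had high cerebellar markers the C3H HeJ minus C57L/J difference was -0.34 and was not called (limma adjusted p = 0.0578). C57BLKS/J minus C57L/J was still called (limma adjusted p = 0.00282). For that pair, cerebellar markers (10 of 10 listed) were at -0.97 to -0.50 in C57BLKS/J and -0.21 to 0.72 in C57L/J. Hippocampus markers (9 of 10 listed) were at -0.10 to 0.03 and 0.02 to 0.09. Over the 18 arrays Grik1 correlated with these lists at -0.11 and 0.70. Without the 2 arrays farthest from each list's median it was 0.51 and 0.73. The part of these markers in the difference was not tested. The call among strains (range 0.53, limma adjusted p = 0.0351) was lost in 13 of the 18 fits that left out 1 array, and without the second untested C3H HeJ array its adjusted p was 0.00795.

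In hippocampus Grik1 read 9.01, 8.84 and 9.29 in C57L/J and 9.31, 8.99 and 8.94 in BalbC/J, against 8.38, 8.93 and 8.76 in C57BL6/J, and the range of strain means was 0.39 (limma adjusted p = 0.389). Grik1 was the only 1 of the 5 members whose strain differences were called as dependent on tissue (F = 3.68, limma adjusted p = 0.0176), where 18.1% of all genes were called. The other members had adjusted p-values of 0.315 to 0.631. The call was lost without the first untested C3H HeJ striatum array (limma adjusted p = 0.0625), and F was 8.32 without the tested C57L/J striatum array (limma adjusted p = 5.2e-05). For C57L/J minus C57BL6/J itself, the difference between tissues was -1.54 ± 0.45 for hippocampus minus striatum (limma adjusted p = 0.105) and 1.48 for striatum minus brainstem (limma adjusted p = 0.0779), neither of them called.

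The second Grik1 probe set separated strains that the brightest did not. Among the 6 strains its range of means was 3.12 in hippocampus (limma adjusted p = 1.23e-11) and 2.85 in brainstem (limma adjusted p = 1.15e-04), where 32.7% and 22.3% of all probe sets were called. Its lowest arrays lay below the 40th percentile, and with those set to that percentile the difference of C57BL10/J from C57L/J, the highest and lowest strains, was at least 5.88-fold in hippocampus and at least 6.15-fold in brainstem. In hippocampus it read 2.79, 2.96 and 2.74 in BalbC/J and 2.74, 2.67 and 2.74 in C57L/J, against 4.74, 4.99 and 5.28 in C57BL6/J. The 6 arrays of BalbC/J and C57L/J lay at 2.67 to 2.96, below the 40th percentile, and the 12 arrays of the other strains at 4.74 to 5.92. The probe set thus passed the filter in hippocampus only through the strains where it was high. Tests there used the values below that limit as deposited, so their p-values add no support to the separation. In brainstem the same strains lay at 2.61 to 3.73, and the others at 4.68 to 6.76. In striatum all 18 arrays were at 2.52 to 3.19, and the probe set was not tested there.

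In hippocampus this probe set was at least 3.13-fold lower in BalbC/J than in C57BL6/J and at least 3.28-fold lower in C57L/J. These are bounds because no BalbC/J or C57L/J array rose above the 40th percentile. The fit of the deposited values called both contrasts (limma adjusted p = 2.74e-09 and 2.11e-09). It used values below that limit, so these p-values do not belong to the bounds. Of all probe sets 14.5% and 4.95% were called in those contrasts, and 2.52%, 6.34% and 19.8% for C57BL10/J, C57BLKS/J and C3H HeJ. In brainstem the differences were -1.77 ± 0.36 in BalbC/J (3.42-fold, limma adjusted p = 0.00549) and -2.08 in C57L/J (limma adjusted p = 0.00358), where 10.8% and 3.54% were called. Of the C57L/J brainstem arrays 2 of 3 were above the 40th percentile, which makes that difference at least 3.62-fold. C57BL10/J, with 5.83, 5.77 and 5.92 in hippocampus, exceeded C57BL6/J there by 0.84 (1.79-fold, limma adjusted p = 7.5e-04). C57BLKS/J, with 5.55, 5.37 and 5.35, exceeded it by 0.42 (limma adjusted p = 0.0427), a call lost in 13 of the 18 fits that left out 1 array, while C3H HeJ at 5.14, 5.38 and 5.18 was not called (limma adjusted p = 0.186). In the order C57BL10/J, C57BLKS/J, C3H HeJ, C57BL6/J, BalbC/J and C57L/J, which was the same in hippocampus and brainstem, the step from C57BL6/J down to BalbC/J was the only called step between neighbours. On the same hippocampus arrays the brightest Grik1 probe set had BalbC/J at the top of its order and C57BL6/J at the bottom, so the probe sets of this gene do not order the strains alike.

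**Figure D4:**
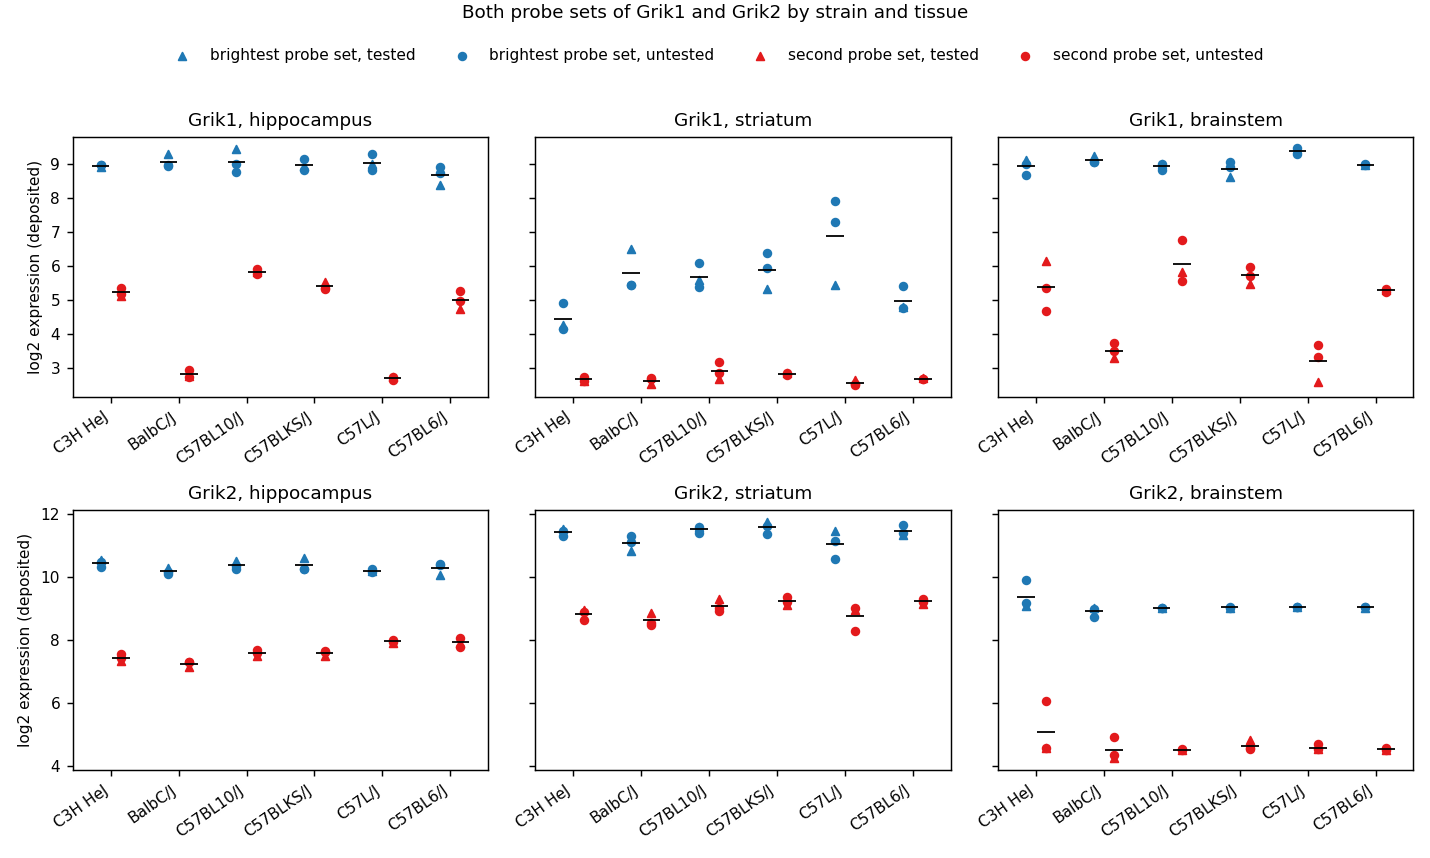
Deposited log2 expression of both probe sets of Grik1 and Grik2 by strain and tissue, triangles for tested and circles for untested arrays, lines for the mean of 3 arrays. The second Grik1 probe set in red is at 2.67 to 2.96 in hippocampus of BalbC/J and C57L/J, where the brightest in blue is at 8.84 to 9.31.

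Grik2 was called among strains in no tissue on its brightest probe set. Its range of strain means was 0.27 in hippocampus (limma adjusted p = 0.223), 0.53 in striatum (limma adjusted p = 0.111) and 0.47 in brainstem (limma adjusted p = 0.241). In brainstem it read 9.06, 9.15 and 9.88 in C3H HeJ, 9.01, 8.96 and 8.71 in BalbC/J, and 9.00, 9.02 and 9.04 in C57BL6/J. The 9.88 came from the array with cerebellar markers, and the other 17 arrays lay at 8.71 to 9.15. Without it the brainstem range was 0.21 (limma adjusted p = 0.258). In striatum, leaving out the tested C57L/J array gave a range of 0.73 that was called (limma adjusted p = 0.0272), while leaving out the first or second untested C57L/J array did not (limma adjusted p = 0.142 and 0.0976).

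The second Grik2 probe set did separate strains in hippocampus, with a range of 0.71 (limma adjusted p = 3.08e-05). It read 7.12, 7.29 and 7.28 in BalbC/J and 7.33, 7.41 and 7.55 in C3H HeJ, against 7.91, 7.77 and 8.05 in C57BL6/J. BalbC/J and C3H HeJ lay below every C57BL6/J array. The differences were -0.68 ± 0.08 in BalbC/J (1.60-fold, limma adjusted p = 2.44e-05) and, for C3H HeJ, -0.48 (limma adjusted p = 5.59e-04). C57L/J, with 7.90, 7.94 and 7.98, differed by 0.03 (limma adjusted p = 0.898). C57BL10/J (-0.33, limma adjusted p = 0.0407) and C57BLKS/J (-0.34, limma adjusted p = 0.0194) were also called, but were lost in 13 and 5 of the 18 fits that left out 1 array. In the order C57L/J, C57BL6/J, C57BL10/J, C57BLKS/J, C3H HeJ and BalbC/J only the step from C57BL6/J to C57BL10/J was called between neighbours. On the same arrays the brightest Grik2 probe set had C3H HeJ at the top of its order and C57L/J next to last, with no strain pair called. BalbC/J was last on both, but the probe sets of this gene do not otherwise order the strains alike. Oligodendrocyte markers (7 of 8 listed) moved with the second probe set, at -0.40, -0.21 and -0.47 in BalbC/J, -0.01, 0.03 and -0.38 in C3H HeJ and 0.41, 0.16 and 0.35 in C57BL6/J relative to the median hippocampus array (r = 0.79 with this probe set over 18 arrays). Hippocampus markers (9 of 10 listed) also moved with it, at -0.36 to -0.15 in BalbC/J and -0.18 to -0.05 in C3H HeJ, against 0.07 to 0.23 in C57BL6/J (r = 0.63). Brainstem, astrocyte and cortex markers ran the other way, with r of -0.74, -0.66 and -0.59. The part of these markers in the difference was not tested.

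In striatum the range on this probe set was 0.60 (limma adjusted p = 0.0442), where 23.9% of all probe sets were called. It read 8.86, 8.53 and 8.47 in BalbC/J, against 9.13, 9.30 and 9.20 in C57BL6/J, a difference of -0.60 (limma adjusted p = 0.0445). These strains did not overlap, where 7.48% of all probe sets were called. Each of these calls was lost in 12 of the 18 fits that left out 1 array. In brainstem it read 4.57, 4.55 and 6.07 in C3H HeJ, against 4.50, 4.49 and 4.55 in C57BL6/J, and again the high value came from the array with cerebellar markers. The C3H HeJ minus C57BL6/J difference then depended on tissue, by -1.03 ± 0.30 for hippocampus minus brainstem (limma adjusted p = 0.0435) and -0.95 for striatum minus brainstem (limma adjusted p = 0.0411), where 3.82% and 8.22% of all probe sets were called. Without that array the values were -0.53 (limma adjusted p = 0.18) and -0.45 (limma adjusted p = 0.225).

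Grik3 was the member with strain differences in striatum and brainstem that were small but closely repeated between pools. In striatum it read 11.39, 11.27 and 11.57 in C3H HeJ, 11.23, 11.28 and 11.26 in BalbC/J and 11.16, 11.25 and 11.33 in C57L/J. It read 11.21, 11.32 and 11.17 in C57BLKS/J, 11.17, 11.06 and 11.01 in C57BL10/J, and 11.16, 10.97 and 10.97 in C57BL6/J. Every C3H HeJ array lay above every C57BL6/J and C57BL10/J array. C3H HeJ exceeded C57BL6/J by 0.38 ± 0.08, or 1.30-fold (limma adjusted p = 0.00657), and C57BL10/J by 0.33 (limma adjusted p = 0.0155), and of all genes 17.6% were called for C3H HeJ minus C57BL6/J and 14.8% for C3H HeJ minus C57BL10/J. The first of these was kept whichever array was left out (0.29 to 0.45). On the same striatum arrays oligodendrocyte markers (7 of 8 listed) were at -0.27 to -0.24 in C3H HeJ, against 0.07 to 0.34 in C57BL6/J, and neuron markers (5 of 5) at -0.36 to -0.15, against -0.09 to -0.04. Grik3 correlated with them at -0.53 and -0.26 over the 18 arrays, and their part in the difference was not tested. The call over all 6 strains (range 0.38, limma adjusted p = 0.028) was lost without the tested (0.0622) or the second untested C3H HeJ array (0.0596), or either untested C57BL6/J array (0.0717 and 0.0711, all limma adjusted p). No neighbours in the order C3H HeJ, BalbC/J, C57L/J, C57BLKS/J, C57BL10/J and C57BL6/J were called.

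In brainstem Grik3 read 10.23, 10.15 and 10.40 in C3H HeJ, 10.21, 10.13 and 10.19 in BalbC/J and 10.24, 10.24 and 10.22 in C57BLKS/J. It read 10.09, 9.93 and 9.97 in C57L/J, 9.76, 9.97 and 9.85 in C57BL10/J, and 9.97, 10.07 and 10.05 in C57BL6/J. C57BL10/J was lowest, and C3H HeJ, C57BLKS/J and BalbC/J did not overlap C57BL10/J, C57L/J or C57BL6/J. The range was 0.40 (limma adjusted p = 0.00489), a call kept whichever of the 18 arrays was left out (0.34 to 0.46). Of the 15 pairs 5 were called, 3 of them against C57BL10/J. C3H HeJ exceeded it by 0.40 (limma adjusted p = 0.00203), BalbC/J exceeded it by 0.32 (limma adjusted p = 0.0115), and C57BL10/J minus C57BLKS/J was -0.37 (limma adjusted p = 0.0098). In these 3 contrasts 12.4%, 9.32% and 2.96% of all genes were called. C3H HeJ also exceeded C57L/J by 0.26 (limma adjusted p = 0.0303). Without the C3H HeJ array that had cerebellar markers it exceeded C57BL10/J by 0.33 (limma adjusted p = 0.00353), and the difference from C57L/J was 0.19 and was not called (limma adjusted p = 0.0751). C3H HeJ minus C57BL6/J was 0.23 ± 0.07 (limma adjusted p = 0.0411), where 19.3% of all genes were called, and the call was lost in 13 of the 18 fits that left out 1 array. It was 0.15 (limma adjusted p = 0.114) when the C3H HeJ array with cerebellar markers was the one left out. Astrocyte markers (6 of 6 listed) were at 0.18 to 0.20 in BalbC/J and -0.17 to -0.06 in C57BLKS/J, against -0.05 to 0.003 in C57BL10/J. Grik3 correlated with astrocyte, brainstem and striatum markers at 0.26, -0.34 and 0.19 over the 18 brainstem arrays. Without the 2 arrays farthest from each list's median these were 0.18, 0.24 and 0.58. The part of these markers in the Grik3 brainstem differences was not tested. In hippocampus C3H HeJ was also first in the order, with 10.65, 10.64 and 10.80, against 9.93, 10.75 and 10.44 in C57BL6/J. These groups overlapped, and the range of 0.33 was not called (limma adjusted p = 0.219).

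Grik4 was called among strains in no tissue, with ranges of 0.35 in hippocampus (limma adjusted p = 0.281), 0.59 in striatum (limma adjusted p = 0.164) and 0.41 in brainstem (limma adjusted p = 0.408). In striatum it read 3.57, 3.71 and 3.61 in C3H HeJ, against 3.88, 4.12 and 4.67 in C57BL6/J. These strains did not overlap, and the difference was -0.59 ± 0.17, or 1.51-fold (limma adjusted p = 0.0289). That call was lost without each of the 3 C3H HeJ arrays in turn (limma adjusted p = 0.0659 to 0.0869) and without the second untested C57BL6/J array, where the difference was -0.38 (limma adjusted p = 0.141). The oligodendrocyte and neuron markers given for Grik3 separate the same arrays, and over the 18 striatum arrays Grik4 correlated with them at 0.68 and 0.48. Their part in the Grik4 difference was not tested. Neighbours in the order C57BL6/J, C57BL10/J, C57BLKS/J, BalbC/J, C57L/J and C3H HeJ were not called. Grik5 was not called either, with ranges of 0.36 (limma adjusted p = 0.21), 0.33 (limma adjusted p = 0.762) and 0.17 (limma adjusted p = 0.731) in hippocampus, striatum and brainstem.

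Against C57BL6/J, counting genes by their brightest probe set, C3H HeJ had Grik3 higher and Grik4 lower in striatum (2 of 5) and Grik3 higher in brainstem (1 of 5), and C57L/J had Grik1 higher in striatum (1 of 5). Of all genes 17.6%, 19.3% and 4.3% were called in these contrasts, in the same order, so the 1 of 5 in C3H HeJ brainstem is near the background. No member was called in the other 12 contrasts of a strain and tissue. The background there was 18% for C3H HeJ in hippocampus and, for BalbC/J, 15.1%, 7.68% and 12.3% in hippocampus, striatum and brainstem. For C57BL10/J it was 2.25%, 0.536% and 2.75%, for C57BLKS/J 5.57%, 2.18% and 2.74%, and for C57L/J 4.39% in hippocampus and 3.28% in brainstem.

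**Figure D5:**
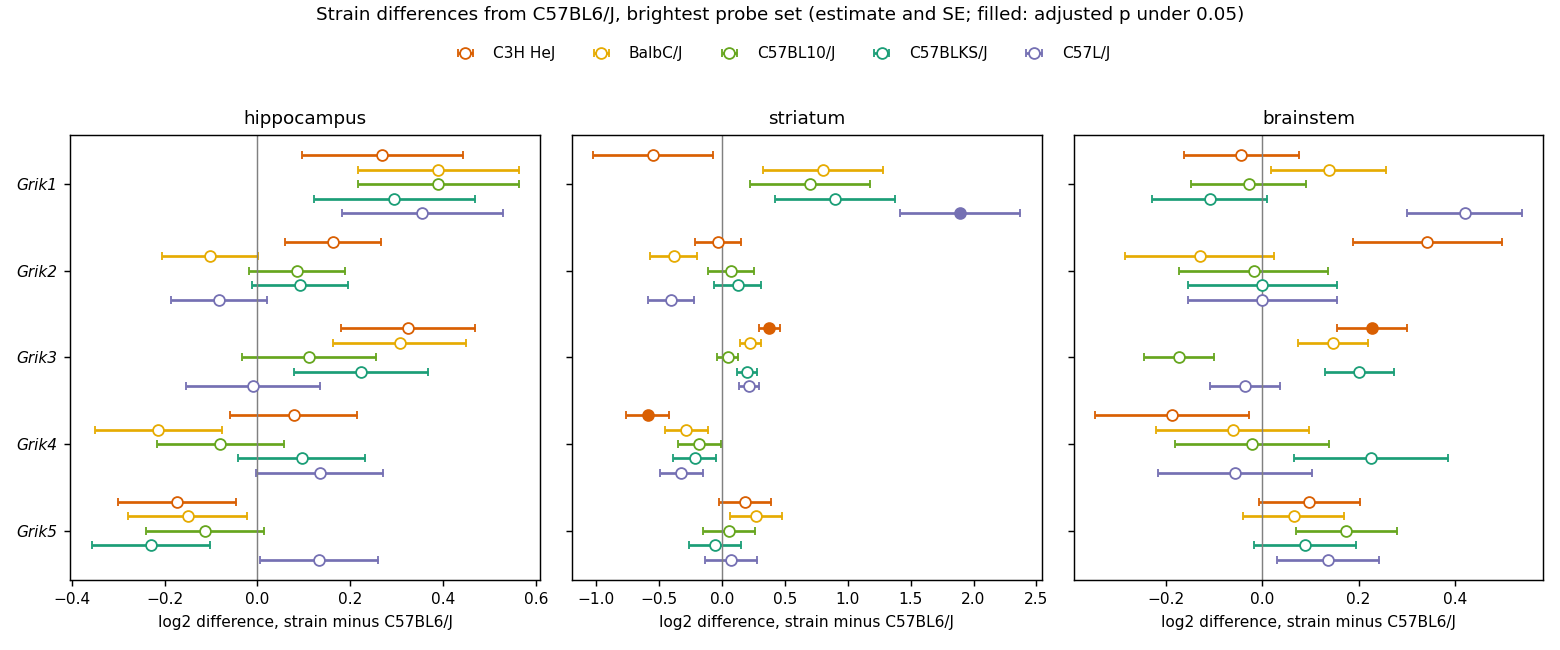
Log2 differences of each strain from C57BL6/J (estimate and SE) for the brightest probe set of the 5 subunit genes, by tissue, filled where the limma adjusted p was under 0.05, with a separate x axis for each tissue. The filled points are Grik1 in C57L/J, Grik3 in C3H HeJ and Grik4 in C3H HeJ in striatum, at 1.90, 0.38 and -0.59, and Grik3 in C3H HeJ in brainstem, at 0.23.

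Of the auxiliary subunits, Neto1 was called among strains in hippocampus (range 0.36, limma adjusted p = 0.0204). It read 11.70, 11.78 and 11.82 in C3H HeJ, against 11.46, 11.38 and 11.50 in C57BL6/J, with no overlap and a difference of 0.32 ± 0.09 (limma adjusted p = 0.0183). It was not called in striatum or brainstem (limma adjusted p = 0.107 and 0.475). Neto2 was called among strains by the F test in no tissue, with ranges of 0.18, 0.53 and 0.32 (limma adjusted p = 0.223, 0.081 and 0.444). As a pair, C3H HeJ exceeded C57L/J in striatum by 0.53 ± 0.13 (limma adjusted p = 0.00988), where 26.7% of all genes were called. That pair includes the C57L/J arrays that stood apart. In brainstem the C3H HeJ array with cerebellar markers read 7.66 for Neto1 and 11.37 for Neto2, and without it the ranges were 0.21 and 0.067 (0.53 and 0.32 with it), still not called. In striatum, leaving out the tested C57L/J array made both called (limma adjusted p = 0.0282 for Neto1 and 0.0314 for Neto2), as did leaving out the second untested one for Neto1 (limma adjusted p = 0.0436).

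Of the 19 partner genes 6 were called among strains in hippocampus, 2 of 18 tested in striatum and 2 of 19 in brainstem, against 31.2%, 26.2% and 23% of all genes. C1ql2 in hippocampus was lower than in C57BL6/J by differences of -1.79 ± 0.14 (C3H HeJ), -1.64 (BalbC/J) and -1.61 (C57L/J), and its range was 1.79 (limma adjusted p = 8.2e-08). The shares of all genes called in those contrasts were 18%, 15.1% and 4.39%. Slc17a7, the vesicular glutamate transporter of cortical and hippocampal principal cells, had a range of 1.19 in hippocampus (limma adjusted p = 1.29e-07), with BalbC/J at -0.97 relative to C57BL6/J. Hippocampus markers (9 of 10 listed) were lower in C3H HeJ and BalbC/J than in C57BL6/J, as given for Grik2. In C57L/J they were at -0.14 to 0.17, against 0.07 to 0.23 in C57BL6/J. Their part in the C1ql2 and Slc17a7 differences was not tested. Adar, an RNA editing enzyme, and Dlg1, a synaptic scaffold, had small ranges in hippocampus, 0.27 (limma adjusted p = 0.00851) and 0.18 (limma adjusted p = 0.0199). In striatum Kif17 had a range of 0.77 (limma adjusted p = 4.42e-04), with C3H HeJ at -0.67 and BalbC/J at -0.59 relative to C57BL6/J. It was the only 1 of 18 partner genes whose strain differences were called as dependent on tissue (limma adjusted p = 1.93e-05). In brainstem Pick1, a scaffold that binds kainate receptor subunits, had a range of 0.49 (limma adjusted p = 0.00988), with BalbC/J at 0.49, C3H HeJ at 0.41, C57BLKS/J at 0.36 and C57L/J at 0.35 relative to C57BL6/J.

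No subunit was called between tested and untested mice. Tested minus untested differences ran from -0.45 ± 0.29 for Grik1 in striatum to 0.11 ± 0.13 for Grik5 in striatum. Without the tested C57L/J array the Grik1 striatum difference was -0.11. In Grik1 striatum, whose values are given above, the tested array lay below both untested arrays in C57BLKS/J and C57L/J, above both in BalbC/J and between them in the other strains. By limma 0 of 5 members were called in each tissue and over the 3 tissues, and 0 had an unadjusted p under 0.05, the lowest being 0.139. Of all genes 0% were called in each of these comparisons.

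Among all genes tested in the 3 tissues, those whose pattern was most like each subunit were named by Pearson correlation, a description in which the points share tissues and strains. Over the 18 strain-by-tissue means the closest were Doc2a (0.9931), Efr3a (0.9905) and Rnf115 (0.9892) for Grik1, and Chst15 (0.9906), Lingo3 (0.9905) and Foxo1 (0.99) for Grik2. For Grik3 they were Tmem164 (0.9812), 4933407K13Rik (0.98) and Zbtb34 (0.9755), for Grik4 Ptpru (0.9955), B4galt4 (0.9951) and Gpr161 (0.9942), and for Grik5 Rnf44 (0.9944), Tlk1 (0.9919) and Dusp14 (0.9915). These values carry mainly the tissue differences. With tissue means subtracted, over 54 arrays, the closest were Map3k9 (0.8328), Rspo2 (0.8285) and Nxph3 (0.824) for Grik1, and Isg20l2 (0.7475), Ppwd1 (0.7419) and Casp8ap2 (0.7275) for Grik3. For Grik4 they were Elovl1 (0.633), Tmcc3 (0.6247) and Zfp276 (0.6149), and for Grik5 Psmd2 (0.7768), Ccdc85b (0.7399) and Ehmt2 (0.7225). For Grik2 they were Dek (0.8165), Caln1 (0.7972) and Lmo7 (0.7871), which fell to 0.7418, 0.7149 and 0.6998 without the C3H HeJ brainstem array with cerebellar markers. No gene was among the closest of more than 1 subunit.

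Between the members themselves the tissue pattern set the likeness. Over the 18 means Grik2 correlated with Grik3 at 0.94 and with Grik5 at 0.94, Grik3 with Grik5 at 0.86, and Grik1 with Grik4 at 0.82, while Grik1 ran opposite to Grik2 at -0.83 and to Grik3 at -0.86. With tissue means subtracted the same pairs gave 0.18, -0.28, -0.24 and 0.15 for the first 4 and -0.42 and 0.06 for the others. The subunits that shared a regional pattern thus had no close correlation across strains and pools within tissues.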

How the data were processed

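The values were log2 expression per probe set on Affymetrix arrays. Per the submitters' processing notes the authors corrected and normalized them in R 2.6.1 with affy 1.16.0 and limma 2.12.0, naming both RMA and GCRMA 2.10.0. Which of these made the deposited log2 values is not stated. The lowest value of an array differed by tissue (-0.20 to -0.15 in hippocampus, -0.02 to 0.03 in striatum, -0.12 to -0.08 in brainstem), so the tissues may have been normalized apart. Array medians were 4.52 to 4.72, 4.17 to 4.31 and 4.43 to 4.57 in the same order. No scan date or batch was found in the labels, and none was tested.

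Of 45101 probe sets, 64 controls were set aside, 34945 had 1 symbol in the platform annotation, 932 several and 9160 none. All tests here were run with limma 3.58.1 in R 4.3.3. Genes entered a tissue's fit if the brightest probe set exceeded the 40th percentile of values on 3 or more of its 18 arrays. Each tissue was fitted with strain and testing as terms (11 residual degrees of freedom). Tissue differences, testing over tissues and strain-by-tissue terms came from a fit of all 54 arrays, treated as independent even though tissues may have shared mice. Tests were two-sided with an intensity trend. The same fits were run over all probe sets. Alternatives were other scalings, filters and probe set rules, no testing term, a replicate block, and leaving out each array. The number of arrays limits the precision. The test was checked on simulated data.

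The members, the partner list, the marker lists and the tests were chosen with earlier results of these data known. Named genes were all 5 members and their probe sets, Neto1 and Neto2, at most 4 called partner genes per comparison by smallest p, and per member the 3 genes with the highest correlation. The values of partner genes in single strains were chosen after they were seen.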

Additional observations from a re-analysis of the deposited data

Results flagged for a closer look

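For Grik1 the strain differences depended on tissue by limma's test of the strain-by-tissue terms (adjusted p = 0.0176). The differences from C57BL6/J ran from -0.55 to 1.90 in striatum, 0.27 to 0.39 in hippocampus and -0.11 to 0.42 in brainstem.

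For the second Grik2 probe set the C3H HeJ minus C57BL6/J difference itself differed between tissues, by -1.03 for hippocampus minus brainstem (limma adjusted p = 0.0435) and by -0.95 for striatum minus brainstem (limma adjusted p = 0.0411). Both were lost without the brainstem array that had high cerebellar markers.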

How the results depend on the processing

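Tissue calls and the lack of calls for testing were kept under the alternatives run on genes, except that Grik1 was called for hippocampus minus brainstem by the mean of its probe sets (-0.22) and by the next brightest (-0.36). Other counts of members called moved, out of 5, as follows. With the mean of a gene's probe sets, 2 were called among strains in hippocampus (0 as reported), with 2 for BalbC/J, 1 for C57BL10/J and 1 for C57L/J against C57BL6/J there, and 0 for C3H HeJ (1 as reported), 1 for BalbC/J and 1 for C57L/J in brainstem. With the next brightest probe set these were 2 among strains in hippocampus, with 1 for C3H HeJ, 2 for BalbC/J, 2 for C57BL10/J, 2 for C57BLKS/J and 1 for C57L/J; 1 among strains in striatum (2 as reported), with 1 for C3H HeJ (2), 1 for BalbC/J and 0 for C57L/J (1); 1 among strains in brainstem (2), with 0 for C3H HeJ, 1 for BalbC/J and 1 for C57L/J; and 0 for strain by tissue (1). C3H HeJ in brainstem was also 0 with quantile normalization, median centring, no filter and the replicate block. C57L/J in striatum was 0 with no filter, and C3H HeJ in striatum was 1 with a filter at the 60th percentile. Of probe sets called among strains, 1 was left in hippocampus with the 60th percentile (2 as reported) and 1 in striatum with no filter (3). Uncalled tested minus untested differences turned sign for Grik1 in hippocampus (-0.0066 by mean, -0.064 by next brightest), Grik2 in hippocampus (-0.019, -0.11) and over 3 tissues (-0.0031, -0.041), Grik1 in brainstem (-0.047, -0.13), Grik3 in brainstem (0.0063, median centring) and Grik5 in brainstem (-0.012, quantile). The causes were not tested.

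Leaving out 1 array at a time, the count among strains ran over 0 to 1 (hippocampus), 1 to 3 (striatum) and 1 to 2 (brainstem), that of C3H HeJ over 0 to 1, 1 to 2 and 0 to 1 likewise, BalbC/J in hippocampus over 0 to 1, C57L/J over 0 to 2 in striatum and 0 to 1 in brainstem, strain by tissue over 0 to 1, and probe sets over 2 to 3, 0 to 4 and 2 to 3. Uncalled testing differences crossed 0, over -0.053 to 0.15 for Grik1 in hippocampus, -0.13 to 0.047 for Grik3 in hippocampus, -0.017 to 0.18 and -0.020 to 0.044 for Grik2 and Grik3 in striatum, -0.0071 to 0.12, -0.10 to 0.027, -0.045 to 0.013 and -0.059 to 0.046 for Grik1, Grik2, Grik3 and Grik5 in brainstem, and, over 3 tissues, -0.042 to 0.016 for Grik3 and -0.012 to 0.055 for Grik5. Pool numbers did not meet the rule for pairing arrays, every correlation over 0.1 (medians of the deviations between tissues 0.010, 0.107 and -0.013, with 4, 10 and 2 of 18 pairs over 0.1), and the replicate block gave a limma adjusted p of 0.0504 for Grik3 in C3H HeJ brainstem.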
